A study of Homo sapiens with 2 samples.

Results

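The genes described here are 10 components of the neuronal microtubule cytoskeleton and the migration machinery, namely DCX, DCLK1, PAFAH1B1, TUBA1A, TUBB3, TUBB2B, MAP1B, MAP2, MAPT and STMN2. They were chosen by name, and all 10 were found among the 62704 genes of the deposited tables of cells and of nuclei. Each had at least 50 counts summed over both sides of every comparison given below, so that none was left out by the filter on low counts. They were measured by split-seq, where fixed cells or nuclei pass through successive barcoding plates and the combined barcode names each of them, in brain organoids grown from the human embryonic stem cell line H9 without any genetic change given in the labels.

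Microtubules are hollow polymers of alpha- and beta-tubulin. In newborn cortical neurons they carry the leading process, pull the nucleus forward during radial migration and then fill the axon and dendrites, whereas in radial glia, the stem cells of the cortical wall, they run along the radial process and build the mitotic spindle. DCX (doublecortin) and its paralog DCLK1 bind and bundle microtubules, and PAFAH1B1 (LIS1) regulates the motor dynein that moves the nucleus. TUBA1A, TUBB2B and TUBB3 are alpha- and beta-tubulins of the developing brain, and mutations in most of these genes cause lissencephaly or related malformations. MAP1B, MAP2 and MAPT (tau) coat and stabilize microtubules, MAP2 mainly in dendrites and MAPT mainly in axons, and STMN2 (SCG10) is a tubulin-binding protein of growth cones.

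The single-cell library pooled control organoids (CO) at days 45, 55 and 70, organoids dissociated at day 45 and reaggregated (DISS) at days 48, 55 and 70, and organoids that lost Matrigel and were constrained in 3% agarose from day 13 (CONS) at day 55. The nuclei were, per the methods, isolated at day 45 from whole and from dissociated organoids, while their label lists control, dissociated and embedded material. All groups came from 1 cell line, and the files give 1 sample name to all barcodes of a library, so conditions, days and organoids were not compared. Each library was 1 sample without replicates, no p-value is given, and library, day, condition, preparation and depth cannot be told apart in any comparison of nuclei with cells.

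After filtering, 20178 of 1303455 barcodes of the cells were kept, with a median of 2615 transcripts, and 14228 of 197446 barcodes of the nuclei, with a median of 3890. Mitochondrial transcripts made up a median of 2.45% in cells and 0.0863% in nuclei. The libraries were uneven in ways that touch the comparisons. In the cells, 6574 kept barcodes had a well combination that was also kept in another sub-library, against 1272 in the nuclei, so sub-libraries are not fully independent, and 99 barcode names were kept in both libraries. The deepest 1% of barcodes held 20.3% of the kept transcripts of the cells and 7.51% of those of the nuclei. Levels below are transcripts per 10000, computed from counts summed over the barcodes of a type, and SD values are over sub-libraries (8 for cells, 2 for nuclei) and measure technical spread only.

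Types were assigned to clusters from marker lists that contain none of the 10 genes, and the 10 genes were kept out of the clustering. Excitatory neuron-like barcodes numbered 1931 in the cells and 3256 in the nuclei, and radial glia-like ones 2736 and 5154. Dividing-like barcodes numbered 3983 and 1863, and choroid plexus-like ones 598 and 369. Intermediate progenitor-like (924, of which 283 in cluster 17 with a median of 25542 transcripts and UPK2 and CA9 as leading genes) and cortical hem-like (1097) clusters were named in the cells only, a Cajal-Retzius-like cluster (107) in the nuclei only, and 8909 cells and 3479 nuclei stayed unnamed. Some named clusters were led by other programs. EGR1, FOS and PLK2 led cluster 4 of the radial glia-like nuclei, heat shock genes such as HSPH1 and HSPA8 led their cluster 12, and PAX3 and WNT3 their cluster 16. CHAF1A led their cluster 5 (921 nuclei), with the S-phase gene NASP among its 10 leading genes. The radial glia-like type can thus include barcodes in S phase. Cluster 11 of the nuclei, named excitatory neuron-like, had EBF2 among its 5 leading genes, as had cluster 13 of the cells, which was named intermediate progenitor-like. In the cells 5 clusters, the choroid plexus-like cluster 20 and the dividing-like clusters 19 and 22 among them, drew 77.4% to 96.2% of their barcodes from 1 well of the first barcoding round. Clusters of the cells also shifted with the random seed, so that 3 other seeds gave 1613 to 2617 excitatory neuron-like cells. Radial glia-like cells then numbered 3165 to 3299, dividing-like ones 2227 to 4083 and choroid plexus-like ones 561 to 1585. With seed 1 no cortical hem-like cluster was named.

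The promoters of 8 of the 10 genes were matched to RefSeq (GRCh38.p14) by symbol, giving 16 start sites. The 250 bases before the start are shown for 4 of them, the 3 tubulins and DCX, because these are the windows of the tubulin and migration genes that hold a CCAAT box, with CCAAT or its reverse complement ATTGG in capitals. They are written on the strand of the gene. The window of TUBA1A lies at chr12:49189081-49189330 (minus strand), that of TUBB2B at chr6:3227654-3227903 (minus strand), that of the second listed start of TUBB3 at chr16:89923092-89923341 (plus strand) and that of the second listed start of DCX at chrX:111412098-111412347 (minus strand).
TUBA1A: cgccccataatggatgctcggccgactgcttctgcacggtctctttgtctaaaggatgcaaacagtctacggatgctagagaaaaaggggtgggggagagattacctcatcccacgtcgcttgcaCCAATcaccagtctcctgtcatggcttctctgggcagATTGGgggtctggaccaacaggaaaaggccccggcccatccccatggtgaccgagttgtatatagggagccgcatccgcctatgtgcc
TUBB2B: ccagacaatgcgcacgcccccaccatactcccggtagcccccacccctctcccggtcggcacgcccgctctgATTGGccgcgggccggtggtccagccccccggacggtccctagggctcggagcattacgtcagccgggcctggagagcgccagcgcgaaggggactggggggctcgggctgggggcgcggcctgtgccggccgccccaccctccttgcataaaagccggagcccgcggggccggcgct
TUBB3: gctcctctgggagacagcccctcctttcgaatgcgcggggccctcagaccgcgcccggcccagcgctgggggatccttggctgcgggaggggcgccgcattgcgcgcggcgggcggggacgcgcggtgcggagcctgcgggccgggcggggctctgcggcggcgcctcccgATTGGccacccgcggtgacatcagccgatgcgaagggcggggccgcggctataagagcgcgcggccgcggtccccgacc
DCX: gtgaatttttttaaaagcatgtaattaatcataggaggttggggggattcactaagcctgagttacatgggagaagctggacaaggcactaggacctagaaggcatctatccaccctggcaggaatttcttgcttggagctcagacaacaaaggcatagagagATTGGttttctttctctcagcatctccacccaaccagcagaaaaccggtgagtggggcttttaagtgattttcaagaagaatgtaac

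The TUBA1A window holds 2 boxes, 1 on each strand, and the other windows 1 each. CCAAT was found on either strand in 5 of the 16 windows of these genes, those of MAP2 included, against 32.0% of all 35116 windows of this length. The GC content was 56.4% for TUBA1A, 75.2% for TUBB2B, 78% for TUBB3 and 44% for DCX, against a median of 58% of all windows. GGGCGG on either strand, the core of a GC box, was present in 6 of the 16 windows against 42.6% of all windows, TATAAA in 3 against 6.80% and CAGATG, an E-box of proneural factors, in 4 against 12.1%, while CAGCTG was in 0 against 13.99%. These matches describe the letters only and were not related to the levels below.

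Among the named types, the level of all 10 genes together was highest in neuronal barcodes and, in the cells, intermediate progenitor-like ones, and lowest in choroid plexus-like ones. In the cells it was 60.6 transcripts per 10000 in excitatory neuron-like, 56.2 in intermediate progenitor-like, 43.6 in radial glia-like, 41.7 in dividing-like, 23.02 in cortical hem-like and 21.55 in choroid plexus-like barcodes. MAP1B and MAP2 made up most of each of these sums, at 19.9 and 13.1 in neuron-like and 21.6 and 8.77 in radial glia-like cells. The intermediate progenitor-like value pools cluster 13 with the deep cluster 17, which was lower for most of the genes, such as MAP2 at 11.5 against 19.8. The choroid plexus-like value pools cluster 14 with cluster 20, which drew 92.1% of its barcodes from 1 well. Cluster 20 was higher for most of the genes, such as MAP1B at 18.0 against 9.36. In the nuclei it was 55.3 in excitatory neuron-like, 51.6 in Cajal-Retzius-like, 34.7 in radial glia-like, 28.6 in dividing-like and 11.3 in choroid plexus-like barcodes. Barcodes of 10 to 100 transcripts, taken here as background, had 45.6 in the cells and 36.6 in the nuclei, close to the 47.1 and 38.2 of all kept barcodes. Whether they hold free RNA or shallow cells, and the part of free RNA in the levels, was not tested.

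Compared per kilobase of transcript, MAP1B was the highest of the 10 in both libraries and TUBB3 the lowest. The place of TUBB3 can depend on how reads were divided with a readthrough gene that overlaps it, as described below. That gene took 7660 counts in the cells against 3030 for TUBB3, and 1284 against 703 in the nuclei. In the cells the level per kilobase of the reference transcript was 1.63 for MAP1B, 1.498 for TUBA1A, 1.03 for MAP2, 0.706 for STMN2, 0.669 for PAFAH1B1 and 0.502 for TUBB2B, followed by DCLK1 at 0.445 and DCX at 0.435, whose unscaled levels overlapped over sub-libraries, MAPT at 0.230 and TUBB3 at 0.113. In the nuclei MAP1B was at 1.24, MAP2 at 1.07, TUBA1A at 0.531, DCLK1 at 0.516, PAFAH1B1 at 0.513, STMN2 at 0.371, DCX at 0.326, MAPT at 0.177, TUBB2B at 0.115 and TUBB3 at 0.0571. TUBA1A was thus ranked below MAP1B alone in the cells and below MAP1B and MAP2 in the nuclei. Whether reads in introns were counted is not given in the sources used here, so a level per kilobase of spliced transcript can include unspliced RNA.

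**Figure D1:**
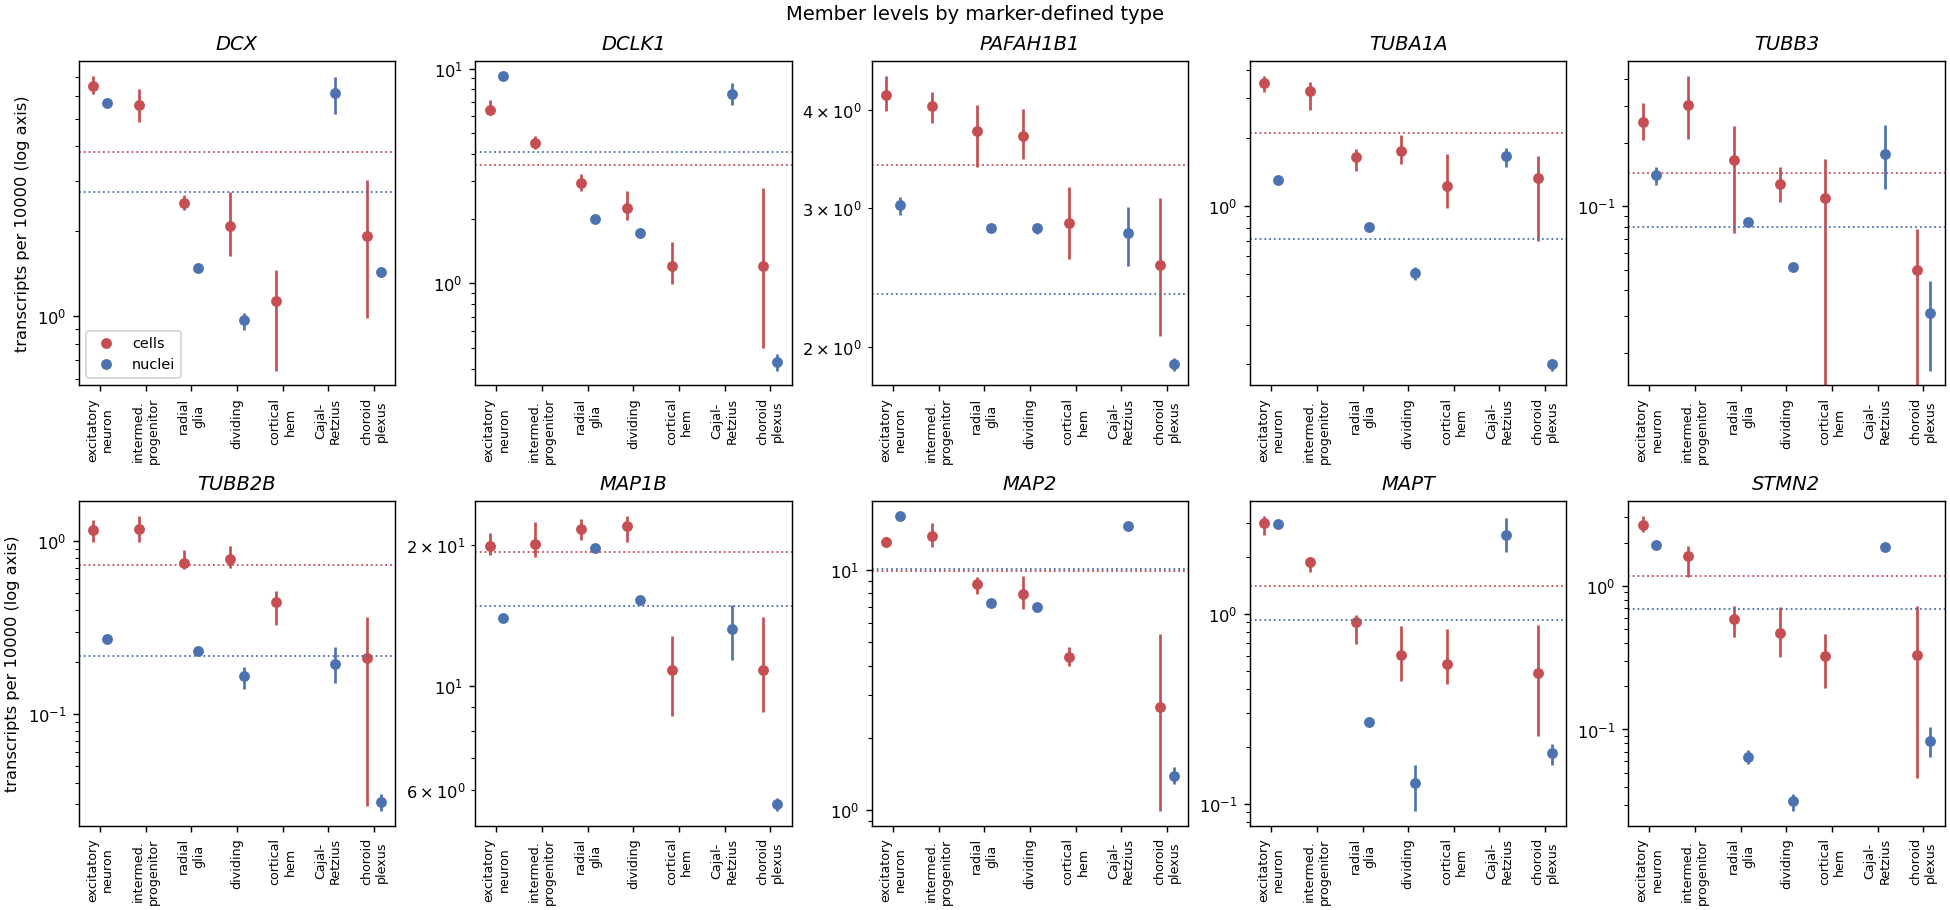
Transcripts per 10000 (log axis) of each of the 10 genes in the marker-defined types, in cells and nuclei; points are summed levels, vertical lines run from the lowest to the highest sub-library (n = 8 and n = 2), and dotted lines give barcodes of 10 to 100 transcripts. STMN2 in radial glia-like barcodes stands at 0.592 in the cells and at 0.0641 in the nuclei, whereas PAFAH1B1 lies between 1.90 and 4.19 in every named type.

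To ask which of the genes mark neurons rather than their progenitors in this material, excitatory neuron-like barcodes were set against radial glia-like ones. STMN2 and MAPT had the largest ratios in the cells and in the nuclei, DCX and DCLK1 followed, PAFAH1B1 was close to equal, and MAP1B was lower in neuron-like barcodes. In the cells 5 of 10 genes were at least 2-fold higher in neuron-like barcodes and 0 were 2-fold lower, where 5.69% of the 21164 genes tested were 2-fold higher and 6.98% lower. In the nuclei 5 of 10 were at least 2-fold higher and 0 lower, where 10.2% of 17006 genes were higher and 19.4% lower. DCX, DCLK1, MAPT and STMN2 were among the 5 in both libraries, with TUBA1A the other in cells and MAP2 the other in nuclei. That TUBA1A fell short of 2-fold in the nuclei (0.68) depends on the radial glia-like clusters pooled, as given below. The median log2 ratio of the 10 genes was 0.86 in the cells, where that of all genes was -0.017, and 0.98 in the nuclei, where that of all genes was -0.30. The count in the cells was 2 of 10 when types were set without clustering, where DCX (0.75), DCLK1 (0.75) and TUBA1A (0.63) were no longer past 2-fold, and 3 of 10 with over 700 transcripts per barcode and a ratio of genes to transcripts below 0.9, where DCX (0.91) and TUBA1A (0.34) were not. In the nuclei it was 4 when types were set without clustering, where MAP2 (0.81) was no longer past 2-fold.

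DCX, on chrX:111293779-111412429, is needed for migrating neurons to reach the cortical plate. Its level in the cells was 6.54 in excitatory neuron-like (SD 0.361, n = 8) and 2.52 in radial glia-like barcodes (SD 0.105, n = 8), a log2 ratio of 1.38 (95% counting interval 1.33 to 1.42, and 0.75 to 1.58 over 18 other settings). In the nuclei it was 5.67 (SD 0.125, n = 2) against 1.49 (SD 0.0464, n = 2), a log2 ratio of 1.93 (1.87 to 1.99). The sub-libraries of neuron-like and radial glia-like barcodes did not overlap in either library. Intermediate progenitor-like cells had 5.56, with 7.84 in cluster 13 and 4.67 in the deep cluster 17, and Cajal-Retzius-like nuclei 6.17. Choroid plexus-like barcodes had 1.92 in cells, with 1.565 in cluster 14 and 3.71 in cluster 20, and 1.44 in nuclei, the latter near the 1.49 of radial glia-like nuclei.

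DCLK1, a doublecortin-like kinase at chr13:35768652-36131382 and the longest of the 10 genes at 363 kb, had sub-libraries that did not overlap between the types in either library. It stood at 6.39 in neuron-like (SD 0.360, n = 8) and 2.94 in radial glia-like cells (SD 0.197, n = 8), a log2 ratio of 1.12 (1.08 to 1.16, and 0.75 to 1.595 over the settings), and at 9.23 (SD 0.0308, n = 2) and 1.996 (SD 0.0687, n = 2) in nuclei, a log2 ratio of 2.21 (2.16 to 2.26). In the radial glia-like cells 4136 of the 6853 counts came from cluster 9, at 4.44 against 1.94 in cluster 3, which lowered the ratio in the cells. Neuron-like nuclei were the highest of all named types in either library. Choroid plexus-like nuclei were the lowest at 0.431.

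PAFAH1B1 (chr17:2593210-2685615) acts in dividing progenitors as well as in migrating neurons. Its level was 4.19 in neuron-like and 3.76 in radial glia-like cells, a log2 ratio of 0.16 (SD 0.11, n = 8), with sub-libraries that overlapped between the types. In the nuclei the level was 3.03 against 2.84, a log2 ratio of 0.093 (SD 0.061, n = 2). Across all clusters PAFAH1B1 also spread least, by 1.95-fold in the cells and 2.08-fold in the nuclei.

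Of the 3 tubulins, TUBA1A, the main alpha-tubulin of postmitotic neurons, had the largest ratio in the cells in the main processing. It reached 3.501 (SD 0.220, n = 8) against 1.66 (SD 0.103, n = 8) in radial glia-like cells, a log2 ratio of 1.08 (SD 0.12, and 0.34 to 1.13 over the settings), and 1.30 (SD 0.0290, n = 2) against 0.810 (SD 0.0113, n = 2) in nuclei, a log2 ratio of 0.68 (SD 0.05). Of the 1542 TUBA1A counts of radial glia-like nuclei, clusters 4 and 12 gave 618 and 319, at levels of 1.04 and 1.975. The other clusters of that type held 0.453 to 0.789, so clusters 4 and 12 lowered the ratio in the nuclei. TUBB2B was at 1.16 against 0.747 in cells and at 0.271 against 0.231 in nuclei, log2 ratios of 0.64 (SD 0.22) and 0.23 (SD 0.04). Its ratio in the cells turned to -0.064 with over 700 transcripts per barcode and a ratio of genes to transcripts below 0.9. TUBB3, whose protein is the target of the TUJ1 antibody used to stain neurons, had only 3030 counts in the cells and 703 in the nuclei. It was at 0.252 against 0.165 in cells (log2 ratio 0.61, SD 0.55) and 0.141 against 0.0840 in nuclei (0.74, SD 0.25), and its sub-libraries overlapped between the types in the cells.

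The counts of the tubulins are uncertain because their sequences are shared. Of the words of 60 bases in the reference transcript of TUBB3, 92.7% also occur in a readthrough gene (ENSG00000198211) that overlaps it on the same strand. That gene took 7660 counts in the cells and 1284 in the nuclei, more than TUBB3 itself. Its level was 0.677 in neuron-like and 0.3605 in radial glia-like cells, and 0.256 and 0.148 in nuclei. Unlike those of TUBB3 in the cells, its sub-libraries did not overlap between the types in either library. How reads were divided between both genes was not tested. TUBB2B shares 54.1% of its words with other genes, most of them with TUBB2A, and TUBA1A shares 40.4%, most of them with TUBA1B. TUBA1B and TUBA1C were lower than TUBA1A, and TUBB2A lower than TUBB2B, with 0.629 for TUBA1B, 0.166 for TUBA1C and 0.203 for TUBB2A over all cells and 0.148, 0.0995 and 0.0445 over all nuclei. TUBA1A further overlaps the antisense gene TUBA1B-AS1 over 3799 of its bases, and how strand was used in counting is not given in the sources used here. The 6 long genes share under 1% of their words with other genes.

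MAP1B, MAP2 and MAPT are all named as microtubule-associated proteins of neurons but had 3 different patterns. MAP1B (chr5:72107234-72209565), which appears early in outgrowing neurites, was abundant in every type, with 19.9 in neuron-like and 21.6 in radial glia-like cells and 13.92 and 19.7 in nuclei. Its log2 ratios of -0.12 (SD 0.09, n = 8) and -0.50 (SD 0.03, n = 2) were below 0 under all 18 settings tried in the cells and 19 in the nuclei, although sub-libraries of the cells overlapped between the types. MAP2 (chr2:209424047-209734147), a marker of dendrites and cell bodies, was at 13.1 (SD 0.416, n = 8) against 8.77 (SD 0.447, n = 8) in cells, a log2 ratio of 0.58, and 16.8 against 7.27 in nuclei, a log2 ratio of 1.21. Dividing-like barcodes still held 7.97 in cells and 7.01 in nuclei, below the 9.97 and 10.08 of barcodes of 10 to 100 transcripts, and the part of free RNA in them was not tested.

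MAPT (chr17:45894527-46028334), the tau gene, was at 2.99 (SD 0.213, n = 8) in neuron-like and 0.906 (SD 0.0984, n = 8) in radial glia-like cells, which is 3.301-fold. In the nuclei it was at 2.97 (SD 0.0982, n = 2) and 0.269 (SD 0.0151, n = 2), which is 11.05-fold. Over the other settings its log2 ratio ranged from 1.13 to 2.26 in cells and from 2.53 to 3.76 in nuclei. Intermediate progenitor-like cells stood between the types at 1.87, with 1.295 in cluster 13, led by EOMES, and 2.09 in cluster 17, which gave 2825 of their 3507 counts. The gene overlaps MAPT-AS1 on the other strand and MAPT-IT1 on its own. Dividing-like nuclei had the lowest level of the named types at 0.129, whereas in the cells choroid plexus-like barcodes were lowest at 0.485, followed by cortical hem-like ones at 0.541 and dividing-like ones at 0.607.

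STMN2, a gene of 55.0 kb with a reference transcript of 1903 bases, had the largest ratio. Its level was 2.65 (SD 0.209, n = 8) in neuron-like and 0.592 (SD 0.0990, n = 8) in radial glia-like cells, a log2 ratio of 2.16 (2.08 to 2.25), and 1.92 (SD 0.00169, n = 2) against 0.0641 (SD 0.00974, n = 2) in nuclei, a log2 ratio of 4.90 (4.64 to 5.18) or 29.9-fold. Over the other settings the log2 ratio ranged from 1.17 to 3.17 in cells and from 2.77 to 5.42 in nuclei. Of the genes tested, 99.4% in the cells and 99.5% in the nuclei had a smaller ratio. Sub-libraries did not overlap between the types in either library. In the radial glia-like cells 996 of the 1380 counts came from cluster 9, where the level was 1.07 against 0.274 in cluster 3. Cluster 9 thus raised the radial glia-like level and lowered the ratio in the cells. The radial glia-like level of the nuclei rests on 122 counts in 5154 barcodes and was within counting error of the 0.0831 of choroid plexus-like nuclei.

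**Figure D2:**
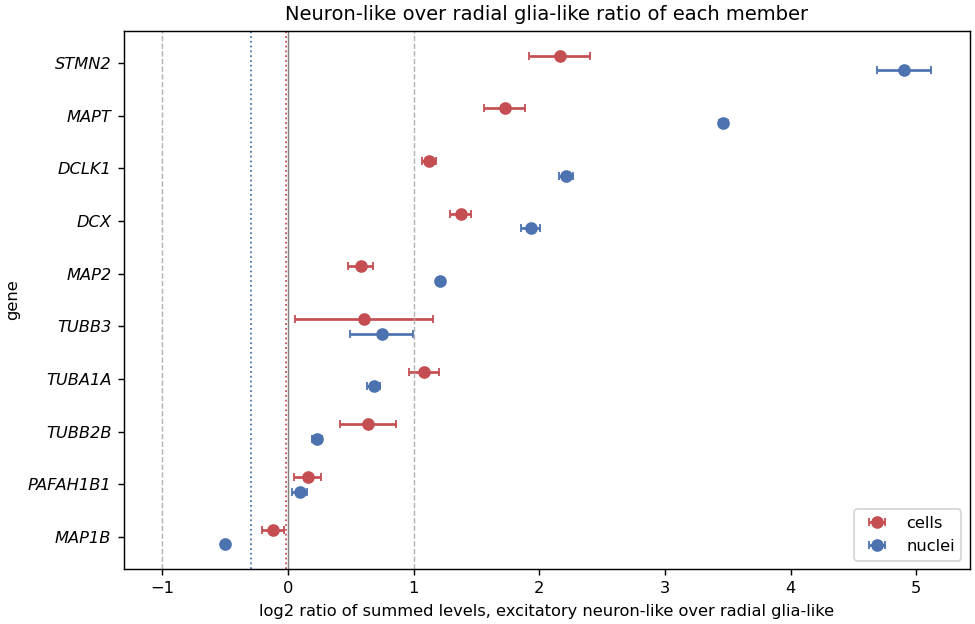
Log2 ratio of summed levels of each gene, excitatory neuron-like over radial glia-like, in cells and nuclei, with error bars of 1 SD over sub-libraries (n = 8 and n = 2), dotted lines at the median of all genes tested (-0.017 and -0.30) and dashed lines at 2-fold. STMN2 stands at 2.16 in cells and 4.90 in nuclei, MAP1B at -0.12 and -0.50, and TUBA1A at 1.08 and 0.68. Radial glia-like clusters 4 and 12 of the nuclei, with TUBA1A at 1.04 and 1.975, lower its ratio in nuclei. The other radial glia-like clusters of the nuclei held TUBA1A at 0.453 to 0.789. The larger TUBA1A ratio in cells thus depends on clusters 4 and 12.

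The ratios did not shift together between the libraries. They were higher in nuclei than in cells for 6 of 10 genes, by 0.14 for TUBB3, 0.56 for DCX, 0.63 for MAP2, 1.09 for DCLK1, 1.74 for MAPT and 2.74 for STMN2 on the log2 scale. PAFAH1B1 (-0.062), MAP1B (-0.38), TUBA1A (-0.40) and TUBB2B (-0.41) had lower ratios in nuclei. Relative to the median of all genes, PAFAH1B1 was higher in nuclei (0.39) than in cells (0.17). TUBA1A (0.98 and 1.10), TUBB2B (0.53 and 0.65) and MAP1B (-0.20 and -0.10) stayed lower. The shift of TUBB3 was within its SDs of 0.25 and 0.55. Clusters 4 and 12 of the radial glia-like nuclei held TUBA1A at 1.04 and 1.975 and TUBB2B at 0.317 and 0.452, above their other clusters. The other radial glia-like clusters of the nuclei held TUBA1A at 0.453 to 0.789 and TUBB2B at 0.124 to 0.178. The lower ratios of both genes in nuclei thus depend on clusters 4 and 12. The difference between the libraries was not tested, as each is 1 sample. The excitatory neuron marker list, 9 genes none of which belong to the 10, had a summed level of 19.3 in neuron-like and 5.25 in radial glia-like cells, a ratio of 3.67, and of 19.9 and 2.14 in nuclei, a ratio of 9.30. Over sub-libraries the radial glia-like sum ranged from 4.86 to 5.63 in the cells and from 2.10 to 2.18 in the nuclei, and 0 of the 9 markers were at 0 in radial glia-like barcodes of either library. In both libraries 7 of 9 of these markers were at least 2-fold higher in neuron-like barcodes. The same list was used to name the neuron-like clusters, so a higher level there was partly fixed by the naming. The part of neuronal transcripts in radial glia-like barcodes in the ratios of the 10 genes was not tested.

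The 2 clusters of radial glia-like cells differed in these genes. Cluster 3, with a median of 5633 transcripts, held STMN2 at 0.274, MAPT at 0.630 and MAP2 at 6.80. Cluster 9, with a median of 1999 transcripts and led by ADAMTS19, NRG1 and SV2C, met the minimum of 3 radial glia markers and held them at 1.07, 1.32 and 11.7. DCLK1 was also higher in cluster 9, at 4.44 against 1.94 in cluster 3. TUBA1A went the other way, with 1.895 in cluster 3 and 1.297 in cluster 9, so the clusters did not differ by a common factor. Depth and the cluster cannot be told apart here.

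Across the neuron-like and intermediate progenitor-like clusters, MAP2 and MAPT did not peak together. MAP2 was highest in cluster 13 of the cells, at 19.8 (95% counting interval 19.4 to 20.2), and in cluster 11 of the nuclei, at 24.6 (24.0 to 25.15), the clusters that shared EBF2 as a leading gene. MAPT stood at only 1.295 and 1.85 there. It was highest in cluster 7 of the cells, at 3.47 (3.36 to 3.59), and in cluster 3 of the nuclei, at 3.29 (3.16 to 3.44), where MAP2 was 14.35 and 15.2. Cluster 1 of the nuclei, with MAPT at 3.14 (3.01 to 3.28), was within counting error of cluster 3. TBR1 and CAMKV were among the leading genes of cluster 7 of the cells and MAL2 and OPCML among those of cluster 3 of the nuclei. Cluster 13 of the cells and cluster 11 of the nuclei held TUBB3 at 0.448 and 0.219 and DCX at 7.84 and 7.655. DCX in cluster 7 of the cells (7.70) and TUBB3 in cluster 13 of the nuclei (0.199) were within counting error of these values.

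Unnamed barcodes held some of the highest levels. TUBA1A (5.24), TUBB2B (2.57) and MAP1B (31.07) were highest of the 23 clusters of the cells in cluster 16, which met no marker list and had EBF2, RGMB, NHLH1 and EYA2 among its leading genes. It held 375 barcodes with a median of 1576 transcripts, and 49.3% of them came from 1 well. STMN2 was at 3.24 (2.99 to 3.51) in cluster 18, which was led by RELN and EBF3 and also stayed unnamed, within counting error of the 3.06 (2.95 to 3.165) of the neuron-like cluster 7. In the nuclei TUBA1A was highest in cluster 12, the radial glia-like cluster led by heat shock genes, at 1.975 (1.76 to 2.20), and in the unnamed cluster 10, at 1.94 (1.77 to 2.13), which were within counting error, and MAP1B in cluster 4, at 25.03, the radial glia-like cluster led by EGR1 and FOS.

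Cluster 13 of the nuclei, unnamed and led by EOMES, the transcription factor of intermediate progenitors, combined 17.2 of MAP2 and 4.05 of DCX with 0.292 of MAPT and 0.142 of STMN2. The radial glia-like nuclei had 7.27 of MAP2, 1.49 of DCX, 0.269 of MAPT and 0.0641 of STMN2. MAP2, DCX and STMN2 were thus above them in this cluster, whereas MAPT was close to them. Across clusters STMN2 spanned the widest range of any of the 10, from 0.0276 to 2.05 in the nuclei and from 0.110 to 3.24 in the cells.

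**Figure D3:**
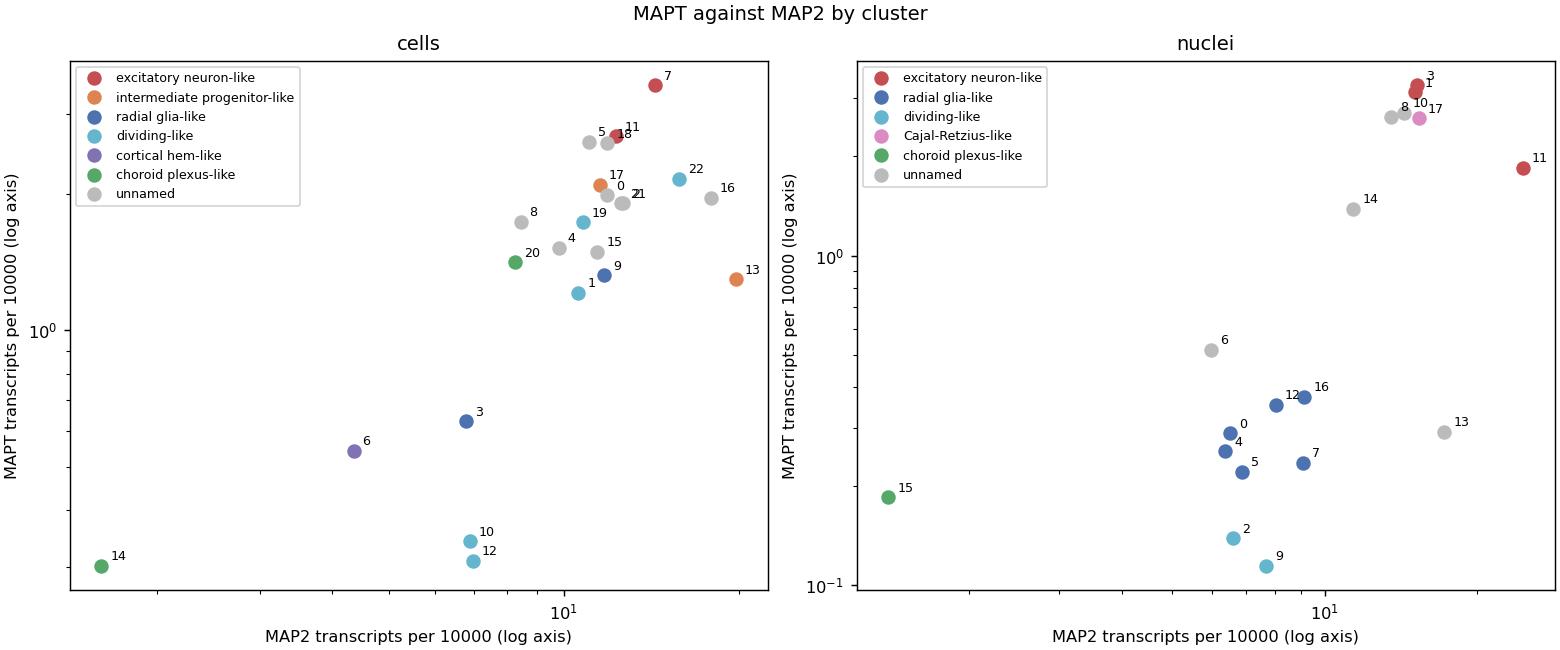
MAPT against MAP2, both in transcripts per 10000 on log axes, for each cluster (23 in cells, 18 in nuclei), coloured by marker-defined type and labelled by cluster number. Cluster 13 of the cells and cluster 11 of the nuclei lie farthest right (MAP2 19.8 and 24.6), and cluster 7 of the cells and cluster 3 of the nuclei are the highest for MAPT (3.47 and 3.29). Cluster 1 of the nuclei is within counting error of their cluster 3 for MAPT.

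The genes with the most similar profile across clusters are given as a description, over clusters that share their library. MAPT was most like CACNA1B, a presynaptic calcium channel subunit, in both libraries (Pearson r of log levels 0.98 over 23 clusters of the cells and 0.99 over 18 of the nuclei). STMN2 was closest to CACNA1B in cells (r = 0.98) and to SVOP, a synaptic vesicle protein, in nuclei (r = 0.98), and DCX to STMN2 itself and then ANK3 in cells (r = 0.94 and 0.93) and to CD200 in nuclei (r = 0.96). MAP2 was closest to FNBP1L in cells and CRMP1 in nuclei, DCLK1 to PPFIA2 and OTUD7A, PAFAH1B1 to MED17 and FAM168A, and MAP1B to SESTD1 and NDST4. TUBA1A and TUBB2B were among the 20 genes most like each other in both libraries, with SOX4 first for TUBA1A in cells and RTF1 in nuclei, and the shared sequence of the tubulins is a property these profiles also share. Among the 10 genes MAPT and STMN2 were the closest pair in both, at 0.96 in cells and 0.98 in nuclei, and the lowest r in nuclei was that of MAP1B with STMN2, at -0.16. TUBB3 was below the level needed for a search.

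Of 84 other genes of the microtubule and migration machinery, 10 were at least 2-fold higher and 3 at least 2-fold lower in neuron-like than in radial glia-like cells, and 23 were higher and 6 lower among the 82 that could be compared in nuclei. Over all genes the shares were 5.69% higher and 6.98% lower in cells and 10.2% higher and 19.4% lower in nuclei. Past 2-fold in the same direction in both libraries were 13 of the 82 genes tested in both, 10 higher and 3 lower. The share of all genes past 2-fold in both libraries was not computed, so this joint count cannot be set against it. DYNC1I1, an intermediate chain of dynein, had log2 ratios of 1.90 in cells and 4.16 in nuclei, CDK5R1, the p35 activator of the kinase CDK5, 1.86 and 1.895, and the kinesin KIF21B 1.72 and 3.51. The tubulin TUBB6 (-1.47 and -2.72) and the severing enzyme FIGN (-1.08 and -2.13) were lower. The Reelin adaptor DAB1 (1.12 and 2.84) and the growth-cone gene GAP43 (1.37 and 3.78) were also among the 13.

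By group, 3 of 3 stathmins, 4 of 14 microtubule-associated proteins, 4 of 10 kinesins and 2 of 9 tubulins were 2-fold higher in neuron-like nuclei, whereas 3 of 9 tubulins were 2-fold lower there. In the cells 1 of 3 stathmins, 2 of 14 microtubule-associated proteins, 2 of 10 kinesins and 2 of 10 tubulins were 2-fold higher, and 1 tubulin was lower. The 8 plus-end proteins, which track growing microtubule tips, had 0 members past 2-fold in the cells and 1 in the nuclei. These groups are small, and the counts stand beside the shares of all genes just given (5.69% higher in cells and 10.2% in nuclei).

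The comparison of nuclei with cells asks how far the short cytoplasmic mRNAs TUBA1A and STMN2 differ from long genes when only nuclear RNA is sampled. In excitatory neuron-like barcodes the tubulins TUBA1A and TUBB2B were lower in nuclei, and the longest genes, DCLK1 and MAP2, were higher. Of the 10 genes 0 were at least 2-fold higher in nuclei and 2 at least 2-fold lower, where 1.5% of the 19232 genes tested were higher and 25.5% lower. The median log2 ratio of all genes was -0.47, so most genes were lower per 10000 in nuclei, and positions relative to it are given beside the ratios.

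The 4 short genes, those that span under 60 kb, had a median log2 ratio of -1.14 and the 6 long ones -0.11, which turns above 0 relative to all genes. TUBB2B, which spans 8.41 kb, had -2.10 (SD 0.16), from 1.16 in cells to 0.271 in nuclei, and TUBA1A, which spans 4.39 kb, -1.43 (SD 0.10), from 3.501 to 1.30. TUBB3 (17.4 kb) had -0.84 (SD 0.28) on 227 counts in the nuclei. STMN2 had -0.47 (SD 0.11), from 2.65 to 1.92, which is 0.0011 relative to the median of all genes, and so was not lowered like TUBA1A in neuron-like nuclei. Its annotated gene is 96.3% intron, against 13.0% for TUBA1A and 50.5% for TUBB2B, although all have reference transcripts of under 2 kb. Whether intron content bears on these ratios was not tested.

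Among the long genes DCLK1 had 0.53 (SD 0.08), from 6.39 to 9.23, and MAP2 0.36 (SD 0.05), from 13.1 to 16.8, above 94.7% and 91.3% of all genes tested. Neuron-like nuclei pooled cluster 11, with MAP2 at 24.6 against 15.1 and 15.2 in clusters 1 and 3, which raised the MAP2 ratio. Cluster 13 of the cells, which shared EBF2 as a leading gene and held MAP2 at 19.8, was not among the neuron-like cells. MAPT was close to equal at -0.0093 (SD 0.12), or 0.46 relative to the median of all genes, with 2.99 in cells and 2.97 in nuclei. DCX had -0.21 (SD 0.09), from 6.54 to 5.67, which turned to 0.26 relative to that median. MAP1B had -0.51 (SD 0.05) and PAFAH1B1 -0.47 (SD 0.07), which were -0.048 and -0.0026 relative to it, whereas TUBA1A and TUBB2B stayed lower, at -0.97 and -1.63. Over 19 other settings DCX ranged from -0.32 to 0.26, above 0 only relative to that median, and MAPT from -0.23 to 0.46, below 0 in 12 of them. DCLK1 ranged from 0.41 to 0.997 and MAP2 from 0.21 to 0.83.

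Gene span moved with this ratio over all genes. The median log2 ratio of nuclei over cells in neuron-like barcodes was -0.84 for genes under 10 kb, -0.59 for 10 to 30 kb, -0.41 for 30 to 100 kb, -0.23 for 100 to 300 kb and 0.032 above 300 kb. Set against genes of their own span, TUBA1A had -0.595 and TUBB2B -1.26 relative to the median of the 3195 genes under 10 kb, and STMN2 -0.053 relative to that of 30 to 100 kb. DCLK1 and MAP2 lay 0.499 and 0.33 above that of 1152 genes over 300 kb, whereas MAP1B had -0.28 relative to the median of its span. TUBB2B was the farthest from its span, with 10.6% of those genes below it, against 26.1% below TUBA1A and 46.1% below STMN2.

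In radial glia-like barcodes the picture differed. All 10 genes had log2 ratios below 0, although MAP1B (0.092) turned above 0 relative to the median of all genes, with 0 of 10 at least 2-fold higher in nuclei (1.29% of 19249 genes) and 4 of 10 at least 2-fold lower (15.5%). STMN2 had -3.21 (SD 0.33), MAPT -1.75 (SD 0.19), TUBB2B -1.69 (SD 0.13) and TUBA1A -1.03 (SD 0.09), where all genes had a median of -0.23. The levels of STMN2 and MAPT in the cells came mostly from cluster 9, with 996 of 1380 and 1232 of 2114 counts. So did those of DCLK1 (4136 of 6853) and MAP2 (10932 of 20460). For DCLK1 and MAP2 the sign depends on that cluster, since cluster 3 held 1.94 and 6.80 against 1.996 and 7.27 in the nuclei. In the radial glia-like nuclei, clusters 4 and 12 gave 618 and 319 of the 1542 TUBA1A counts. They also gave 189 and 73 of the 440 TUBB2B counts. Both genes were lower in the other clusters of these nuclei, so clusters 4 and 12 raised both ratios. TUBB3 had -0.98 (SD 0.54), DCX -0.76, DCLK1 -0.56, PAFAH1B1 -0.41, MAP2 -0.27 and MAP1B -0.13. Thus MAPT, a long gene with a near-equal level in neuron-like nuclei and cells, was among the genes 2-fold lower in radial glia-like nuclei, and the sum of excitatory neuron markers was lower there too, at 2.14 against 5.25. STMN2 was below all but 0.286% of the 6293 genes of its span.

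In dividing-like barcodes TUBA1A had -1.78 (SD 0.19) and TUBB2B -2.25 (SD 0.32) in nuclei over cells, while STMN2 had -3.89 (SD 0.48) on 34 counts in the nuclei, where all genes had a median of -0.32. DCLK1 had -0.39 (SD 0.17) there and MAP2 -0.19 (SD 0.14), which turned to 0.13 relative to that median, but the long genes MAPT (-2.23) and DCX (-1.10) were lower as well. The dividing-like cells pooled unlike clusters. STMN2 was at 0.110 and 0.235 in clusters 12 and 10 but at 1.23 to 1.55 in clusters 1, 19 and 22. DCX was at 0.779 and 1.78 against 3.83 to 6.635, and MAPT at 0.310 and 0.3425 against 1.21 to 2.16. The ratios of these genes in dividing-like barcodes thus depend on which clusters are pooled. Over all kept barcodes, regardless of type, TUBB2B (-2.12) and TUBA1A (-1.50) were 2-fold lower in nuclei, as were 9882 of 29474 genes, with a median of all genes of -0.55 relative to which TUBA1A was at -0.95. STMN2 had -0.93 there, and DCLK1 (0.21) and MAP2 (0.055) were above 0.

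**Figure D4:**
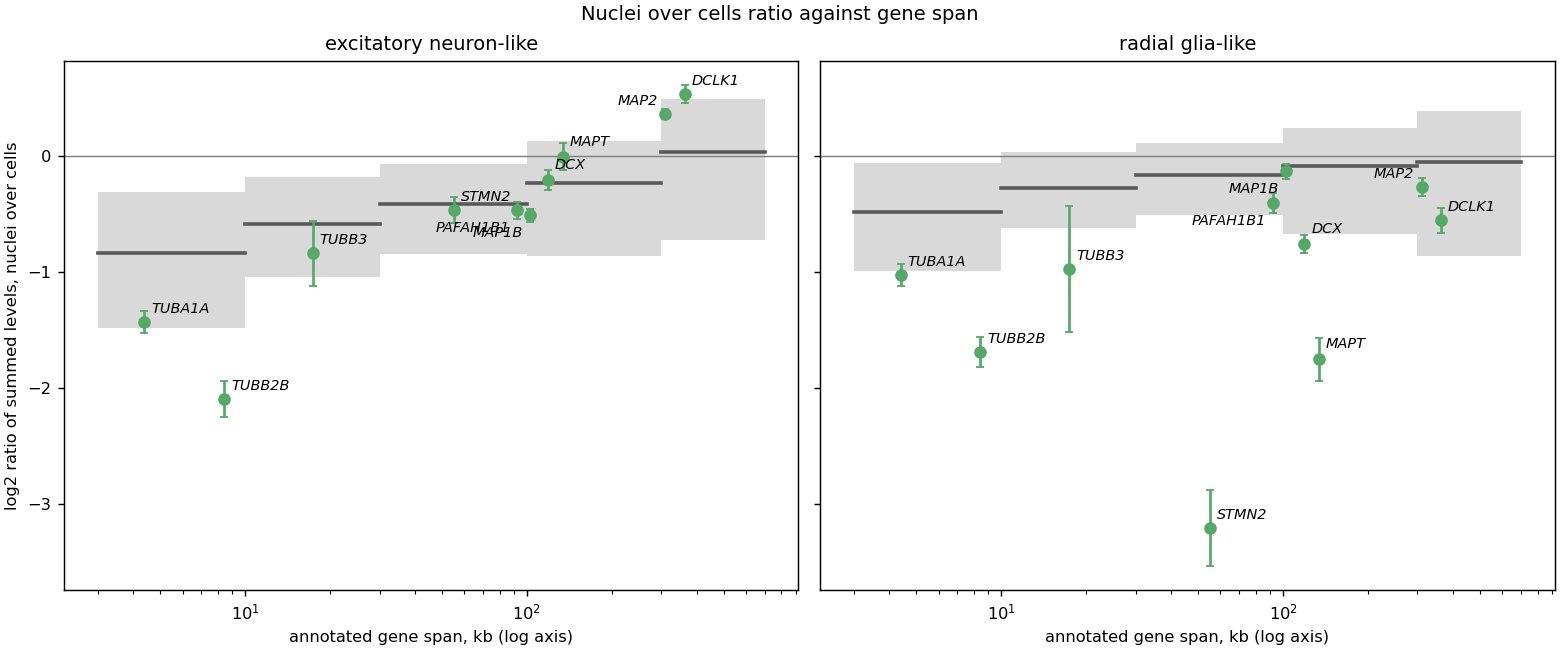
Log2 ratio of nuclei over cells (summed levels) against annotated gene span in kb (log axis), for excitatory neuron-like and radial glia-like barcodes; points are the 10 genes with error bars of 1 SD from the sub-libraries of both libraries, with the median (line) and quartiles (shading) of all genes tested in each span bin. STMN2 stands at -0.47 on the left and at -3.21 on the right, while TUBB2B is at -2.10 and -1.69.

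Among the 84 listed genes, 2 were at least 2-fold higher and 12 at least 2-fold lower in neuron-like nuclei than in neuron-like cells, where 1.5% of all genes were higher and 25.5% lower, and 7 of the 12 were tubulins, of which 10 were listed. The lowest were TUBB4B (-2.68), TUBB6 (-2.55) and TUBA1B (-2.42) and the highest were DAB1 (1.24), MAP7 (1.04), which recruits kinesin to microtubules, and ASTN1 (0.68), which acts in migration along glial fibres. In radial glia-like barcodes 1 gene was higher and 16 were lower of 83 tested, where 1.29% and 15.5% of all genes were, and 6 of the 16 were tubulins. The lowest were KIF21B (-1.84), GAP43 (-1.80) and DYNC1I1 (-1.76), and the highest FIGN (1.16), the tubulin-folding cofactor TBCD (0.67) and CLASP1 (0.35), which stabilizes growing microtubule ends.

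Detection in single barcodes showed the same contrast. After thinning each barcode to 1000 transcripts, so that depth did not differ, STMN2 was detected in 21.75% of neuron-like cells (95% Clopper-Pearson interval 19.9 to 23.7), 4.35% of radial glia-like cells (3.62 to 5.18) and 4.01% of choroid plexus-like cells (2.59 to 5.91). In the nuclei the shares were 14.65% (13.4 to 15.9), 0.601% (0.409 to 0.853) and 0 of 369, which allows a share of barcodes with a transcript of up to 0.813% at 3 counts, or 0.995% as the upper Clopper-Pearson limit, counting error only. The shares in radial glia-like and choroid plexus-like barcodes were thus within each other's counting error, while in the cells clusters of each type differed, with STMN2 at 0.173 and 1.13 in the choroid plexus-like clusters 14 and 20. The part of free RNA in these shares was not tested. Without thinning the shares of STMN2 were 69.8%, 18.5% and 16.4% in cells and 46.8%, 1.71% and 4.88% in nuclei, at median depths of 7753, 4086 and 4550 transcripts and of 4132, 3052 and 9539.

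MAPT was detected in 27.5% of neuron-like and 8.15% of radial glia-like cells and in 24.1% and 2.70% of nuclei after thinning, against 3.51% and 1.08% in choroid plexus-like barcodes. Without thinning the shares were 78.97%, 29.6%, 63.7% and 7.86%, against 24.1% and 10.6% in choroid plexus-like barcodes. MAP1B was detected in most barcodes of neuron-like and radial glia-like types, in 79.5% of neuron-like, 84.7% of radial glia-like and 65.2% of choroid plexus-like cells and in 67.9%, 78% and 35.8% of nuclei (without thinning 97.7%, 98.1%, 93.1%, 93.03%, 92.8% and 86.2%). TUBA1A was detected in 27.8% of neuron-like, 13.7% of radial glia-like and 11.7% of choroid plexus-like cells and in 11.9%, 7.24% and 1.355% of nuclei (without thinning 73.8%, 47.2%, 48.3%, 38.8%, 21.2% and 15.45%). A thinned barcode held a median of 4 of the 10 genes in neuron-like, 2 in radial glia-like and 1 in choroid plexus-like cells, and of 3, 2 and 1 in nuclei. At least 5 of the 10 were found in 24.3% of neuron-like and 4.28% of radial glia-like cells, and in 14.04% and 0.563% of nuclei (without thinning 89.5%, 54.75%, 78.6% and 20.02%).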

How the data were processed

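Split-seq libraries of cells and of nuclei from H9 organoids were sequenced by the authors, split into 8 and 2 sub-libraries, aligned to GRCh38 with the Parse pipeline and deposited as unfiltered counts of transcripts per gene and barcode, without removal of background. Whether intronic reads and strand were used in counting is not given in the sources used here.

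From the deposited counts, barcodes with over 500 genes, over 1000 transcripts and at most 20% mitochondrial transcripts were kept. No doublets were removed in the main analysis. Clustering (scanpy 1.11.5, 2000 variable genes without the 10 genes, 30 components, 15 neighbours, Leiden resolution 1) and marker lists gave the types, a cluster being named from at least 3 markers. Components and graph weights were rounded to 4 decimals, since clusters of the cells had shifted with the number of threads. Counts were summed per type and library and given per 10000 transcripts with exact 95% Poisson intervals, ratios with exact conditional intervals and shares with Clopper-Pearson intervals, all of which cover counting error only. With 1 library per group no test was possible. Genes were counted as differing at 2-fold or more with at least 50 counts, and the scripts were tested on simulated data. Gene positions are from GENCODE 44, matched to 62625 of 62704 genes by identifier, and promoters from RefSeq. Figures were drawn with matplotlib 3.10.9 in Python 3.11.15.

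Named were all 10 genes, the 3 highest and 3 lowest of the listed genes past 2-fold in the same direction in both libraries (by the smaller of both changes), the 3 highest and 3 lowest listed genes of each comparison of nuclei with cells, the genes most like each member, the leading genes of clusters, and the paralogs TUBA1B, TUBA1C and TUBB2A. Some genes that these rules name are not reported here. The members and lists were chosen with earlier results of these data known. Filters, scaling, clustering settings, doublet removal and sub-libraries left out were varied as alternatives.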

Additional observations from a re-analysis of the deposited data

Results flagged for a closer look

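In the comparison of nuclei with cells, 2 genes pointed in opposite directions in the types. DCLK1 had a log2 ratio of 0.53 in excitatory neuron-like and -0.56 in radial glia-like barcodes, and MAP2 had 0.36 and -0.27. Relative to the median of all genes, DCX (0.26 and -0.54), MAPT (0.46 and -1.53), STMN2 (0.0011 and -2.98) and MAP1B (-0.048 and 0.092) did so as well, and MAP2 in radial glia-like barcodes was near 0 at -0.044. These differences were not tested, since each library is 1 sample. The negative ratios of DCLK1 and MAP2 in radial glia-like barcodes depend on cluster 9 of the cells, which held them at 4.44 and 11.7. Cluster 3 of the radial glia-like cells held DCLK1 at 1.94 and MAP2 at 6.80. The radial glia-like nuclei held DCLK1 at 1.996 and MAP2 at 7.27.

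Barcodes of 10 to 100 transcripts, which enter no ratio between types or libraries, held the 10 genes at a summed level of 45.6 transcripts per 10000 in the cells and 36.6 in the nuclei.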

How the results depend on the processing

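Of the 10 genes, the 5 that were at least 2-fold higher in neuron-like cells became 3 among barcodes of over 700 transcripts whose genes numbered under 0.9 of their transcripts, and 2 when types were set without clustering. Of the 84 listed genes, the 10 higher in cells became 6 under each of these settings. No count in the nuclei moved by over 1.5 times. For nuclei over cells, the 2 lower members became 1 relative to the median of all genes. The 2 higher listed genes became 7 relative to that median, 1 with over 700 transcripts, at a clustering resolution of 0.5, with seeds 1 and 3 and without the deepest 1% of barcodes, and 0 as a mean over barcodes and at a resolution of 2. The causes were not tested. With seeds 1, 2 and 3, the members at least 2-fold higher in neuron-like cells numbered 4, 5 and 4.

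Leaving out each sub-library gave 5 to 5 members higher in cells, 9 to 12 listed genes higher and 2 to 3 lower. In the nuclei it gave 5 to 5 members, and 19 to 24 and 6 to 7 listed genes. For nuclei over cells it gave 0 to 0 and 2 to 2 members, and 1 to 2 and 11 to 14 listed genes, the 1 without sub-library 2, 4 or 5 of the cells. No paired analysis was possible because each library is 1 sample and no test was made. Leaving out recurring well combinations, the deepest 1% and the nuclei clusters led by EBF2, and seeds 2 and 3, were alternatives chosen after seeing the data.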

Other observations

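The first round of barcoding used 48 wells for the cells and 12 for the nuclei, which the files do not tie to conditions or days. Over the 41 wells of the cells with at least 100 kept barcodes, DCX ranged from 1.03 to 5.35 transcripts per 10000 with a median of 3.61, MAP2 from 3.75 to 14.7 and STMN2 from 0.302 to 2.48. The share of excitatory neuron-like barcodes ranged from 0% to 58.1% in the same wells. Over the 12 wells of the nuclei DCX ranged from 2.06 to 3.45, MAP2 from 7.24 to 12.2 and STMN2 from 0.479 to 0.916, with 17.8% to 29.8% of barcodes neuron-like. PAFAH1B1 differed by 1.90-fold between the highest and lowest well of the cells and by 1.32-fold in the nuclei.

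Background barcodes held each of the 10 genes at 0.747 to 1.01 times its level in kept barcodes in the cells, with TUBB3 lowest and MAP1B highest, and at 0.766 to 1.01 times in the nuclei, with MAPT lowest and MAP1B highest.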
